A study of Mus musculus with 4 samples.

Results

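The 10 genes described here encode the enzymes and core partners that write or remove DNA methylation, and the core of Polycomb repressive complex 2 (PRC2). They are Dnmt1, Uhrf1, Dnmt3a, Dnmt3b, Tet1, Tet2, Tet3, Ezh2, Eed and Suz12. The genes were taken by name, matching the deposited gene identifiers without their version to GENCODE vM21 symbols, and all 10 were found among the 55487 genes of the tables. Their RNA was measured by sequencing in mouse astrocytes grown in primary culture, in 4 libraries. Each library is the only one of its kind: OASIS deficient with doxorubicin, OASIS deficient untreated, OASIS wild type with doxorubicin, and OASIS wild type untreated. OASIS is encoded by Creb3l1, a transcription factor anchored in the endoplasmic reticulum membrane and released by cleavage under stress. Doxorubicin poisons topoisomerase II and breaks DNA. It was applied at 1 µg/ml for 1 h to confluent cultures, which were then kept for 24 h in fresh medium. All cultures grew in the same serum-containing medium, and the labels name neither the allele behind the deficiency nor the number, age or sex of the animals. With 1 library per condition nothing separates the effect of a label from that of the culture it names, and no ratio of single libraries below has a replicate check.

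Cytosine methylation at CpG sites is copied onto the new strand after each round of replication by DNMT1, which UHRF1 guides to half-methylated sites. DNMT3A and DNMT3B set methylation on unmarked DNA, and the TET enzymes oxidise 5-methylcytosine as a step towards its loss. PRC2 places methyl groups on lysine 27 of histone H3, with EZH2 as the catalytic subunit, EED as the subunit that reads the mark and SUZ12 as the scaffold. In glial lineages these systems are known for holding developmental genes silent, and the maintenance enzymes and EZH2 are known to be more abundant in dividing cells.

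The depth was 17481188 to 22559613 counts per library, and 15596 genes entered the tests with a mean level of 1 CPM or more (read counts divided by the TMM-scaled library size). Creb3l1 had 235 and 260 counts in the libraries labelled deficient (doxorubicin, untreated), against 636 and 966 in the libraries labelled wild type, so it was lower but not absent. Xist had 2742 and 2547 counts in the doxorubicin libraries (deficient, wild type), against 0 and 1 in the untreated ones, and both doxorubicin libraries had 0 counts of Uty, Kdm5d, Eif2s3y and Ddx3y on the Y chromosome. Treatment label and sex of the culture cannot be told apart. Targets of p53, which doxorubicin is known to activate, were called between the genotype labels and not between the treatment labels. Cdkn1a, the p53 target that encodes the cell cycle inhibitor p21, had 3926 and 3204 counts in the deficient libraries, against 34221 and 25804 in the wild-type ones. Of 15 listed p53 targets, 15 were called lower in the deficient libraries by the test used below, with a median log2 fold change of -2.71. Of all genes tested, 10.6% were called lower. For treatment 0 of 15 were called, but only 0.16% of all genes tested were, so that 0 says little about this list. Whether every library carries the right label cannot be told from these tables. All directions below are those of the libraries as labelled.

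The cultures held astrocytes and other cells. The 12 astrocyte markers summed to 10100 and 11500 CPM in the deficient libraries, against 4000 and 4110 CPM in the wild-type ones. Gfap was the largest part of each sum, at 5170 and 6590 CPM against 1120 and 1140 CPM. Of the 12 markers, 9 were called higher in the deficient libraries. Gja1 (343 and 316 CPM against 289 and 348 CPM) and Aldh1l1 (350 and 358 CPM against 304 and 289 CPM) were not called. Of all genes tested, 12.6% were called higher and 10.6% lower. Oligodendrocyte lineage markers summed to 1080 CPM in each deficient library, against 348 and 474 CPM in the wild-type ones, with 10 of 11 called higher. The defining marker Mog was at 0 in both wild-type libraries, and Sox10 and Mobp were at 0 in wild type with doxorubicin. Neuronal markers summed to 437 and 407 CPM in the deficient libraries and 200 and 223 CPM in the wild-type ones, with 5 of 7 called higher and Dcx and Snap25 at 0 in both wild-type libraries. Syt1, not called, and Rbfox3, below the minimum, were highest in wild type with doxorubicin instead. Syt1 had 69 counts there and 7 in wild type untreated, against 40 and 32 in the deficient libraries. Rbfox3 had 24 and 0 counts in the wild-type libraries, against 7 and 17 in the deficient ones. Microglial markers summed to 633 and 921 CPM in the deficient libraries and 728 and 1020 CPM in the wild-type ones, with 1 of 10 called higher and 2 lower. C1qb, a complement gene of microglia, was called lower with doxorubicin (log2 fold change -0.65, edgeR adjusted p = 0.0377). Fibroblast markers summed to 945 and 1020 CPM in the deficient libraries and 936 and 1150 CPM in the wild-type ones (0 of 7 called), neural progenitor markers to 968 and 903 CPM and 834 and 795 CPM (3 of 6 higher, 1 lower), ependymal markers to 102 CPM in each deficient library and 144 and 102 CPM in the wild-type ones (1 of 5 lower), and endothelial markers to no more than 17.9 CPM in any library. In bulk RNA, fewer cells of a type and less RNA per cell cannot be told apart. The part of this cell mixture in the differences below was not tested.

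**Figure D1:**
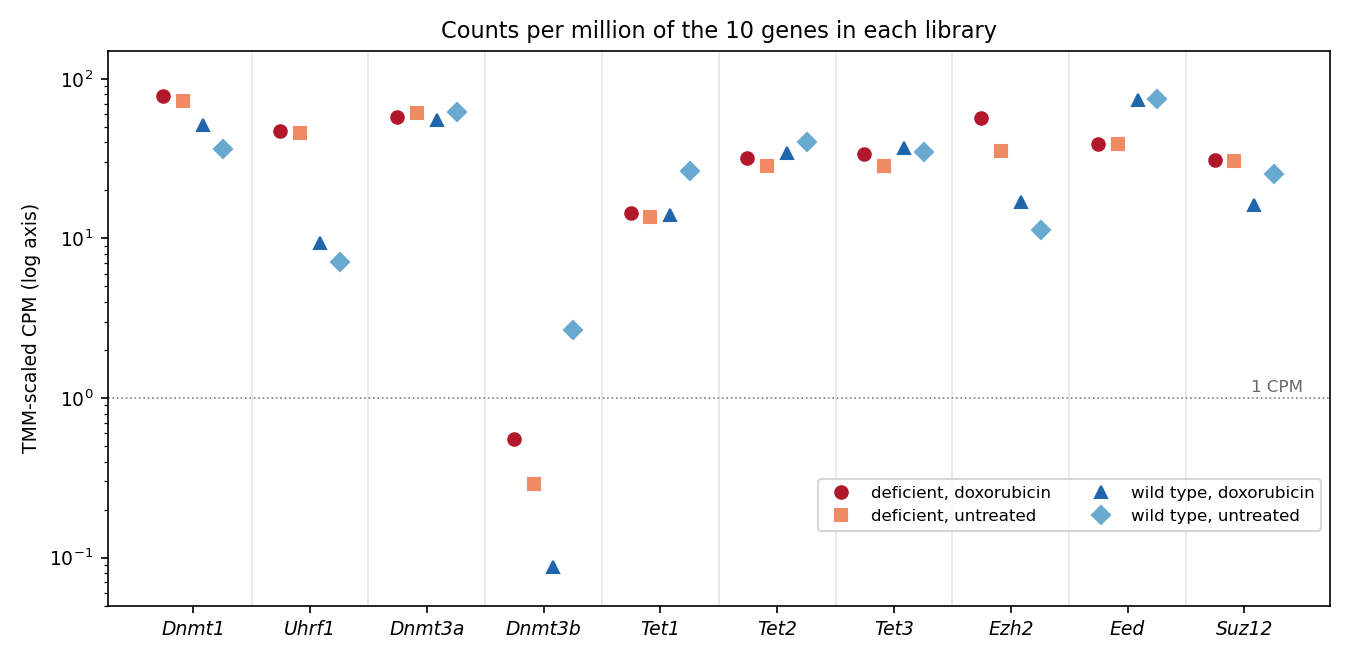
TMM-scaled CPM (log axis) of the 10 genes in each library, 1 point per library and no error bars since each condition has 1 library. Uhrf1 and Ezh2 lie higher and Eed lies lower in both deficient libraries than in either wild-type library, and Dnmt3b is above 1 CPM (dotted line) in wild type untreated alone.

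Genotype was tested over all 4 libraries in an additive model with treatment as the second term (edgeR's quasi-likelihood test). Calls were made at a Benjamini-Hochberg adjusted p of at most 0.05 over all genes tested. The model leaves 1 residual degree of freedom, which holds both noise and any dependence of the response on genotype. The variance of each gene was also moderated towards that of all genes tested (14.3 prior degrees of freedom). A p-value therefore rests mostly on how all genes scatter over these 4 libraries, which may be technical, and not on replicates. Of the 10 genes, 9 passed the expression minimum and Dnmt3b did not. Uhrf1, Ezh2 and Dnmt1 (3 genes) were called higher in the deficient libraries, where 12.6% of all genes tested were called higher. Eed was called lower, where 10.6% of all genes tested were called lower. Dnmt3a, Tet1, Tet2, Tet3 and Suz12 were not called. The median log2 fold change was 0.03 for the 9 genes and -0.01 for all genes tested, since the changes ran in both directions.

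Of the 9 genes tested for genotype, Uhrf1 had the largest fold change. It encodes the reader of half-methylated CpG sites that brings DNMT1 to replicated DNA (ENSMUSG00000001228.14, GRCm38 chromosome 17, 56303321 to 56323486, plus strand). Uhrf1 had 936 counts in deficient with doxorubicin, 792 in deficient untreated, 215 in wild type with doxorubicin and 141 in wild type untreated, or 47.3, 46.0, 9.39 and 7.08 CPM. Both deficient libraries lay far above both wild-type libraries, and within the deficient pair the values were nearly equal. The ratio of deficient to wild type was 5.04 with doxorubicin, with a 95% exact conditional binomial interval of 4.34 to 5.87. Without treatment it was 6.50 (5.43 to 7.83). These intervals cover counting error only and hold no variation between cultures, since each condition has 1 library. The reads carry no molecular identifiers, so copies of 1 molecule are counted apart and the intervals may be too narrow. In the additive model Uhrf1 was 5.71-fold higher in deficient libraries (log2 fold change 2.51 ± 0.27 SE, edgeR adjusted p = 5.67e-06), and it kept its call in all 12 alternative fits, each library left out in turn included.

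Dnmt1, the maintenance methyltransferase itself, changed less (ENSMUSG00000004099.16, chromosome 9, 20907209 to 20959888, minus strand). It had 1536 and 1255 counts in the deficient libraries (doxorubicin, untreated), against 1180 and 724 in the wild-type ones, or 77.7 and 72.9 CPM against 51.5 and 36.3 CPM. All values of the deficient libraries were above those of the wild-type libraries, with wild type untreated the lowest. The additive model gave a 1.74-fold higher level in deficient libraries (log2 fold change 0.80 ± 0.19 SE, edgeR adjusted p = 0.00575). The call was lost without deficient doxorubicin (log2 fold change 0.73, edgeR adjusted p = 0.203) and without deficient untreated (0.82, adjusted p = 0.136), at folds of similar size. On the deposited TPM scale, which divides by the length of the transcripts assigned, Dnmt1 was at 17.7 and 18.1 TPM in the deficient libraries and 17.5 and 10.5 TPM in the wild-type ones, so that with doxorubicin the log2 ratio of genotypes was 0.02 on TPM and 0.58 on CPM.

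Set against each other on TPM, the maintenance pair was unequal between genotypes. Uhrf1 reached 0.983 and 0.917 of the Dnmt1 level in the deficient libraries, against 0.202 and 0.264 in the wild-type libraries.

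Promoter windows of the genes called for genotype are shown here and below, marked for a short motif bound by E2F factors. E2F factors drive genes of DNA synthesis, and their part in the calls was not tested. Each window is 300 bases of the mouse reference from RefSeq (GRCm38.p6), 250 before and 50 after an annotated start, 5′ to 3′ on the strand of the gene. Where a gene has several windows, the one with the most CpG is printed. Capitals mark the 4 forms searched on both strands: the form TTCCCGC, the form TTCGCGC, the form TTGCCGC and the form TTGGCGC. The Uhrf1 window is chr17:56304063-56304362 (plus strand) and the Dnmt1 window is chr9:20952574-20952873 (minus strand).
Uhrf1: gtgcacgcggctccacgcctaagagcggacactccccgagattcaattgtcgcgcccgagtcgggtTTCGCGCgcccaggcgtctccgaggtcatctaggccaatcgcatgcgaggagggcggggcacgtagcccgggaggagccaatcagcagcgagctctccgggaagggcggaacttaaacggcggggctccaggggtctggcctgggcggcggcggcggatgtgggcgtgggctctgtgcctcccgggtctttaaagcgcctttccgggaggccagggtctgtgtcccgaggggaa
Dnmt1: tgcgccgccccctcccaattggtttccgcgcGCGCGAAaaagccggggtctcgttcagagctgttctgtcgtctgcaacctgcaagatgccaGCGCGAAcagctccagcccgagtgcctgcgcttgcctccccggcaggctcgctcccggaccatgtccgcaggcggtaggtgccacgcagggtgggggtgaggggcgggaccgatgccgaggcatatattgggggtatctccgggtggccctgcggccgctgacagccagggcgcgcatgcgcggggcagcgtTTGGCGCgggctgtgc
The Uhrf1 window has 33 CpG and 1 match, and the other Uhrf1 window (12 CpG) has 1 match as well. The Dnmt1 window has 33 CpG and 3 matches, while the windows of its other starts have 12 and 2 CpG and no match. A match was present in 9.57% of all 32851 windows and in 25.4% of the 3837 windows with at least 30 CpG, so it is common in CpG-rich starts. At least 1 window held a match in 4 of the 10 genes, namely Uhrf1, Dnmt1, Ezh2 and Suz12. That count is per gene, over up to 3 windows each, while the shares above are per window. The annotated start behind the Dnmt1 matches lies 7265 bases from the GENCODE 5′ end of the gene. Suz12 holds a match and was not called, and Eed was called and holds none. A match is a string of letters and not evidence of binding, and the gene tables do not show which start was used.

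The de novo enzymes gave no genotype call. Dnmt3a (ENSMUSG00000020661.15, chromosome 12, 3806007 to 3914443, plus strand) had 1144 and 1050 counts in the deficient libraries and 1262 and 1231 in the wild-type ones, or 57.8, 61.0, 55.1 and 61.8 CPM. The libraries overlapped, and the whole range of the 4 was narrower than for any of the other genes that were tested. The additive model gave a log2 fold change of 0.03 ± 0.18 SE (edgeR adjusted p = 0.942). TPM differed from this in 1 library: wild type with doxorubicin was at 30.1 TPM, against 18.6 TPM in wild type untreated, and the deficient libraries were at 18.2 and 17.5 TPM. The log2 ratio of doxorubicin to untreated in wild type was therefore 0.66 on TPM and -0.16 on CPM. The antisense gene Dnmt3aos shares 133 exonic bases with Dnmt3a, cannot be separated from it without strand, and had at most 17 counts.

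Dnmt3b, the other de novo enzyme, was close to the detection floor (ENSMUSG00000027478.15, chromosome 2, 153649450 to 153687730, plus strand). It had 11 and 5 counts in the deficient libraries (doxorubicin, untreated), 2 counts in wild type with doxorubicin and 53 counts in wild type untreated. Its mean of 0.899 CPM missed the minimum, so it was not tested. The single high library was wild type untreated, at 2.66 CPM, against 0.0873 to 0.556 CPM in the rest. The ratio of deficient to wild type was 6.37 with doxorubicin (1.39 to 59.1) and 0.109 without treatment (0.034 to 0.271), on opposite sides of 1. Of the summed TPM of the catalytic DNA methyltransferases, Dnmt3a made up 50.5 and 49.0% in the deficient libraries and 63.2 and 62.2% in the wild-type libraries. Dnmt1 made up 49.0 and 50.7% in the deficient libraries and 36.7 and 35.1% in the wild-type ones. Both shares in wild type with doxorubicin rest on a Dnmt3a TPM per CPM of 0.545, against 0.287 to 0.315 in the other libraries. The closeness of the wild-type shares therefore depends on the TPM scale.

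The TET dioxygenases were all measured in every library, and none was called for genotype. Tet1 (ENSMUSG00000047146.17, chromosome 10, 62804570 to 62908996, minus strand) had 286 and 234 counts in the deficient libraries, 321 in wild type with doxorubicin and 528 in wild type untreated, or 14.5, 13.6, 14.0 and 26.5 CPM. Wild type untreated stood alone and the other 3 libraries were within 1 CPM of each other. Its additive log2 fold change was -0.46 ± 0.35 SE (edgeR adjusted p = 0.387), and without wild type doxorubicin it was -0.88 and called (0.0374). TPM gave a wider gap, with 8.16 and 4.70 TPM in the deficient libraries against 11.6 and 21.4 TPM in the wild-type ones.

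Tet2 (ENSMUSG00000040943.12, chromosome 3, 133463679 to 133545139, minus strand) had 31.7 and 28.6 CPM in the deficient libraries and 34.3 and 40.2 CPM in the wild-type ones. Both deficient values were below both wild-type values, and the additive log2 fold change was -0.30 ± 0.23 SE (edgeR adjusted p = 0.405). Tet3 (ENSMUSG00000034832.15, chromosome 6, 83362373 to 83459084, minus strand) had 34.0 and 28.3 CPM in the deficient libraries and 36.9 and 34.9 CPM in the wild-type ones. The log2 fold change of Tet3 was -0.21 ± 0.23 SE (edgeR adjusted p = 0.581). The 3 TET genes summed to 24.4 and 18.2 TPM in the deficient libraries, against 31.0 and 45.1 TPM in the wild-type libraries. Wild type untreated was the one library where the TET sum exceeded the DNA methyltransferase sum on TPM, at 1.50 TET transcripts per methyltransferase transcript, against 0.510 to 0.676 in the other 3. Tet1 made up 47.5% of the TET sum in that library. Its TPM per CPM was 0.808 there and 0.346 in deficient untreated, so the size of this contrast depends on the TPM scale.

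**Figure D2:**
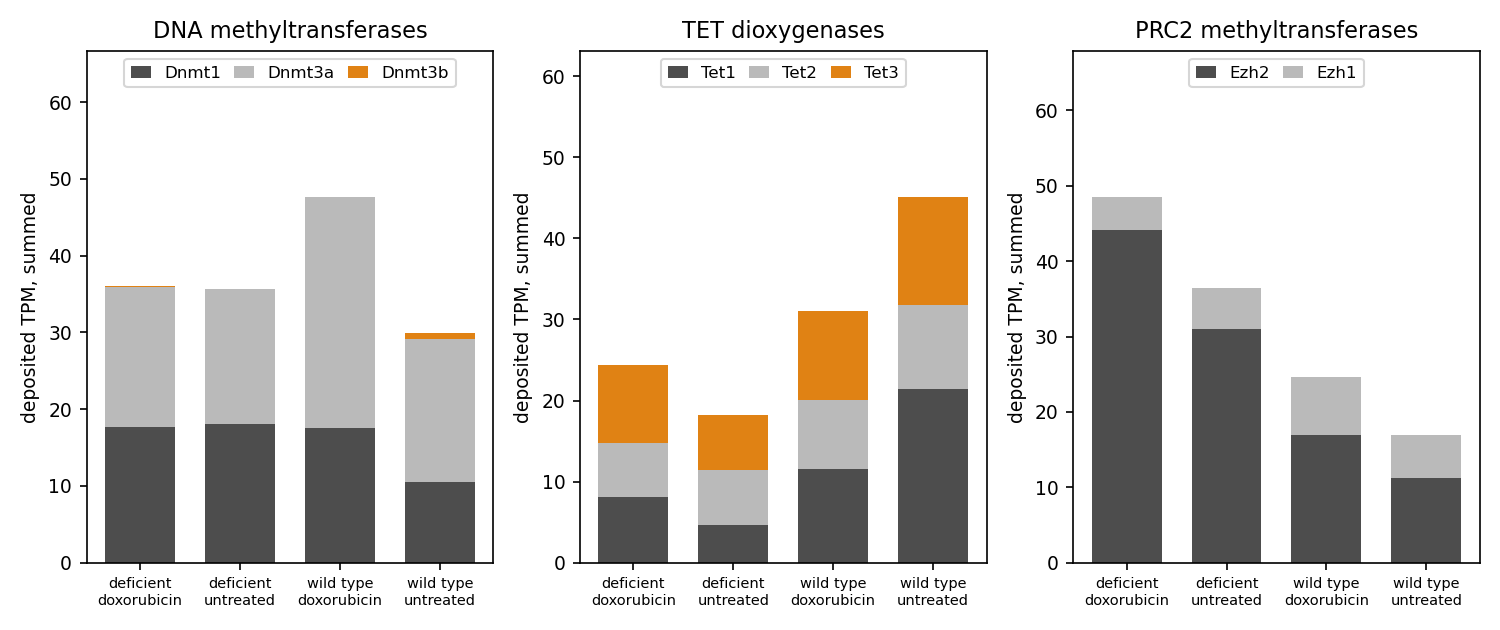
Deposited TPM stacked by gene for the DNA methyltransferases, the TET dioxygenases and the PRC2 methyltransferases, 1 bar per library with no error bars. Ezh2 makes up 91.0 and 85.0% of Ezh1 plus Ezh2 in the deficient libraries, against 68.8 and 66.8% in the wild-type libraries.

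The core subunits of PRC2 moved in different directions. Ezh2, the methyltransferase (ENSMUSG00000029687.16, chromosome 6, 47530139 to 47595341, minus strand), had 1128 and 608 counts in the deficient libraries (doxorubicin, untreated), against 385 and 226 in the wild-type ones, or 57.0 and 35.3 CPM against 16.8 and 11.3 CPM. Both deficient libraries were above both wild-type libraries, and within each genotype the doxorubicin library was the higher. The ratio of deficient to wild type was 3.39 with doxorubicin (3.02 to 3.82) and 3.11 without it (2.67 to 3.64). The additive model gave a 3.25-fold higher level (log2 fold change 1.70 ± 0.25 SE, edgeR adjusted p = 0.000122), and without deficient doxorubicin the call was lost at a log2 fold change of 1.33 (0.0858). Ezh1, the paralogue with weaker catalytic activity, had 15.0 and 19.3 CPM in the deficient libraries and 24.3 and 15.1 CPM in the wild-type ones (log2 fold change -0.17, edgeR adjusted p = 0.773).

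Eed, the subunit that binds methylated lysine 27 and stimulates the enzyme, was the 1 gene of the 10 called lower (ENSMUSG00000030619.10, chromosome 7, 89954654 to 89980983, minus strand). It had 770 and 668 counts in the deficient libraries and 1694 and 1484 in the wild-type ones, or 38.9 and 38.8 CPM against 74.0 and 74.5 CPM. The genotype pairs did not overlap and the treatment made almost no difference within either. The additive model gave a level 0.524 times that of wild type (log2 fold change -0.93 ± 0.185 SE, edgeR adjusted p = 0.00164). The call was lost without deficient doxorubicin (edgeR adjusted p = 0.0664) and without deficient untreated (0.0662), while the fold change stayed between -0.94 and -0.90 with any 1 library left out. TPM gave the same direction, with log2 ratios of -1.08 with doxorubicin and -1.04 without. The transcript E230029C05Rik shares 261 exonic bases with Eed on the opposite strand, and at 30 to 50 counts per library it was small beside Eed.

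Suz12, the scaffold (ENSMUSG00000017548.15, chromosome 11, 79993106 to 80034123, plus strand), had 30.9 and 30.6 CPM in the deficient libraries, 16.3 CPM in wild type with doxorubicin and 25.3 CPM in wild type untreated. The low library was wild type with doxorubicin. The additive log2 fold change was 0.60 ± 0.27 SE (edgeR adjusted p = 0.131), and it was 0.92 and called without wild type untreated (0.0212). On TPM Suz12 was nearly level, at 14.9 and 14.1 TPM in the deficient libraries and 13.4 and 11.8 TPM in the wild-type ones. The genes Gm26625 and Gm26563 share 174 and 178 exonic bases with Ezh2 and Suz12 on the opposite strand. Neither has a count here, so any reads of theirs in these bases cannot be separated from Ezh2 and Suz12 without strand.

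The balance of the subunits differed with genotype on TPM. There were 1.04 and 0.726 Ezh2 transcripts per Eed transcript in the deficient libraries, against 0.187 and 0.128 in the wild-type libraries. Per Suz12 transcript there were 2.97 and 2.21 Ezh2 transcripts in the deficient libraries and 1.26 and 0.957 in the wild-type ones. The value of 1.26, in wild type with doxorubicin, rests on a Suz12 TPM per CPM of 0.820, against 0.459 to 0.481 in the other libraries. In deficient with doxorubicin, Ezh2 (44.1 TPM) and Eed (42.3 TPM) were the most abundant of the 10 genes, followed by Dnmt3a, Dnmt1 and Uhrf1 at 18.2, 17.7 and 17.4 TPM. In wild type untreated Eed led at 88.7 TPM, then Tet1 at 21.4 and Dnmt3a at 18.6 TPM, while Ezh2 and Dnmt1 stood at 11.3 and 10.5 TPM and Uhrf1 at 2.77 TPM. Dnmt3b was last in all 4 libraries. With 1 library per condition there is no spread by which to separate neighbours in these orders.

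The PRC2 windows shown for comparison are chr6:47594981-47595280 for Ezh2 and chr7:89980927-89981226 for Eed, both on the minus strand. Ezh2 was the core subunit called higher and Eed the one called lower. Capitals mark the same E2F forms as above.
Ezh2: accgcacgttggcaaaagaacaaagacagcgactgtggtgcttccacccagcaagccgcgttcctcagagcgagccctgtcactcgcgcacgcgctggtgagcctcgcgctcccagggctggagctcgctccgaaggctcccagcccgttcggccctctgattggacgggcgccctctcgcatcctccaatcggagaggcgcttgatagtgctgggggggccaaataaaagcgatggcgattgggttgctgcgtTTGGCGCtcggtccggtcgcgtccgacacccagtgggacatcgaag
Eed: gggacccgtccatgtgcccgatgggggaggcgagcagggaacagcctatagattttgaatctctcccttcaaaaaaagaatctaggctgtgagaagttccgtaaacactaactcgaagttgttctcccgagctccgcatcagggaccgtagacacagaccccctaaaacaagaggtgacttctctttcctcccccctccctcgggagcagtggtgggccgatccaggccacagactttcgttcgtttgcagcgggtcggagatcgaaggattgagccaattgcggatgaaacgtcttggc
The Ezh2 window has 31 CpG and 1 match, which begins 4 bases after the annotated start. The Eed window has 17 CpG and no match to these forms. It has 2 matches to TTTGAA, a motif of genes of late cell cycle phases that 17.9% of all windows hold on either strand. The single Suz12 window has 1 E2F match and 1 TTTGAA match. Windows of Dnmt1 and Dnmt3b hold TTTGAA as well, so it is present in 4 of the 10 genes, among them genes called higher, lower and not at all.

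Doxorubicin responses were small for most of the 10 genes. In the additive model no gene of the 10 was called for treatment, where 0.16% of all genes tested were called in either direction, 3 higher and 22 lower with doxorubicin. Ezh2 was the 1 gene of the 9 with an unadjusted p under 0.05, with a log2 fold change of 0.63 ± 0.24 SE, an unadjusted p of 0.0204 and an edgeR adjusted p of 0.776, and doxorubicin exceeded untreated in both genotypes. Of all genes tested, 864 had an unadjusted p under 0.05 in this edgeR test, and limma-voom called 0 of the 9 genes tested here, as did DESeq2 of the 7 to which it gave an adjusted p. The ratio of doxorubicin to untreated for Ezh2 was 1.61 (1.46 to 1.78) in deficient and 1.48 (1.25 to 1.75) in wild type, with both counting intervals above 1. These contrasts hold the sex difference of the cultures as well as the drug. No gene of the 11 pathway lists was called for treatment by edgeR.

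**Figure D3:**
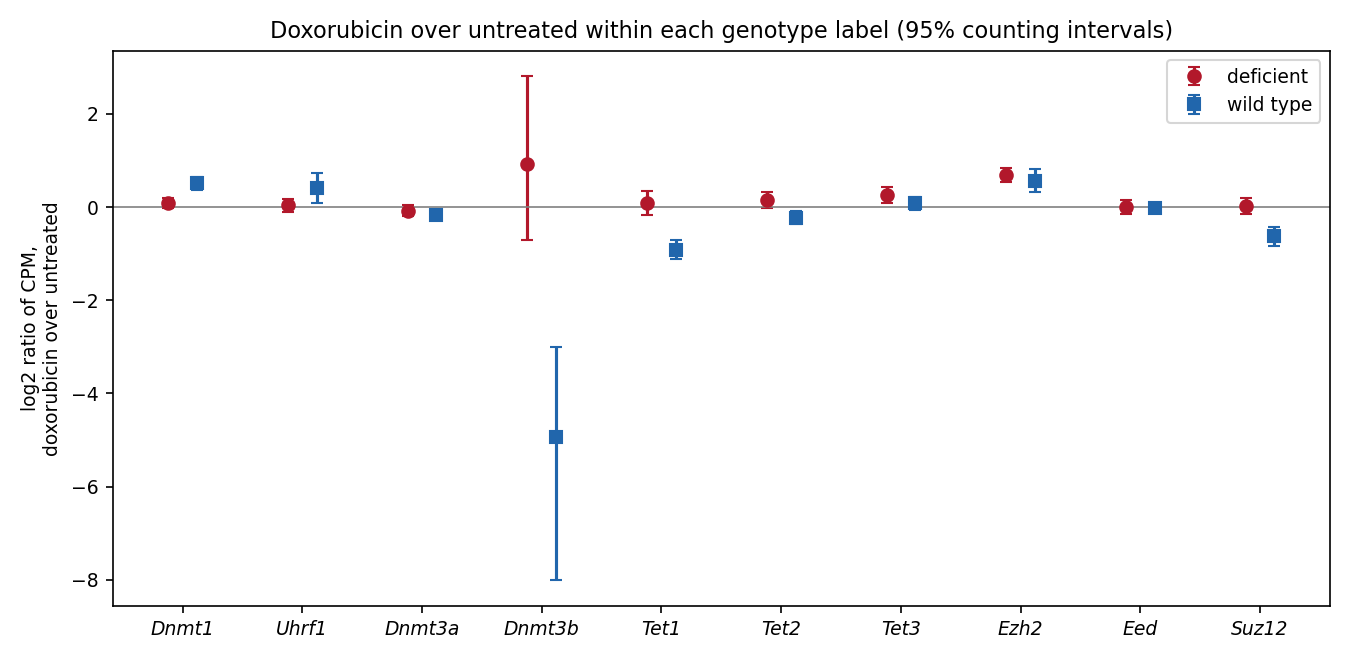
Log2 ratio of CPM, doxorubicin over untreated, in deficient and in wild-type cultures, with 95% exact conditional binomial intervals that cover counting error only. Ezh2 is above 0 in both, Eed is at 0 in both, and the intervals of Dnmt1, Tet1, Suz12 and Dnmt3b lie off 0 in wild type and hold 0 in deficient.

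The counting intervals of Dnmt1, Tet1, Suz12, Uhrf1, Tet2, Dnmt3a and the sparse Dnmt3b excluded 1 in wild type and held 1 in deficient, and that of Tet3 did the opposite. The share of all genes that meet this rule was not computed, so it is not a result particular to these genes. Changes past 2-fold were also more common in wild type over all genes tested (4.08% higher, 5.45% lower) than in deficient (1.58% and 1.93%). With many counts the interval excludes 1 at small changes, such as 0.892 for Dnmt3a in wild type. Dnmt1 had 51.5 CPM with doxorubicin and 36.3 CPM untreated in wild type, a ratio of 1.42 (1.29 to 1.56), against 1.07 (0.988 to 1.15) in deficient. Tet1 had 14.0 CPM with doxorubicin and 26.5 CPM untreated in wild type, a ratio of 0.529 (0.459 to 0.609), against 1.06 (0.892 to 1.27) in deficient. Suz12 had a ratio of 0.647 (0.564 to 0.741) in wild type and 1.01 (0.897 to 1.14) in deficient, but on TPM its wild-type log2 ratio was 0.17, in the other direction. The difference between genotypes in response was 0.96 for Tet1, 0.61 for Suz12, 0.37 for Tet2 and -0.40 for Dnmt1 on the log2 scale. It could not be tested, since a model with that term has no residual degree of freedom.

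A rule of size, a log2 ratio of CPM + 1 of at least 1 or at most -1, was also applied to single libraries, and the added 1 CPM understates the change of low genes. For deficient over wild type with doxorubicin, 2 of the 9 genes were past 2-fold higher (Uhrf1 and Ezh2) and 0 lower, against 10.7% and 9.55% of all genes tested. Without treatment the same 2 were higher and 0 lower, against 9.79% and 10.2% of all genes. Dnmt1 was just short of the rule there, at a log2 ratio of 0.98 with the added 1 CPM and a plain ratio of 2.01 (1.83 to 2.2). With DESeq2 size factors, 3 of these genes were past 2-fold higher without treatment. For doxorubicin over untreated, 0 of the 9 were past 2-fold in deficient (all genes 1.58% higher, 1.93% lower) and 0 in wild type (4.08% higher, 5.45% lower). The difference of both responses was past 2-fold for 0 of the 9, against 7.66% of all genes higher and 6.05% lower in deficient.

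CPM and TPM did not give the same picture for every gene. TPM per CPM differed by a factor of 2.39 between libraries for Tet1, 1.90 for Dnmt3a, 1.78 for Suz12, 1.57 for Tet3 and 1.49 for Dnmt1, against a median of 1.17 over all genes tested. It differed by 1.09 for Uhrf1, 1.12 for Eed and 1.3 for Ezh2. For Dnmt3a the quotient was 0.315 and 0.287 in the deficient libraries, 0.545 in wild type with doxorubicin and 0.301 in wild type untreated. For Suz12 it was 0.481 and 0.459 in the deficient libraries, 0.820 in wild type with doxorubicin and 0.468 in wild type untreated. For Tet1 it was 0.564 and 0.346 in the deficient libraries and 0.825 and 0.808 in the wild-type ones. The median log2 ratio of deficient to wild type over all genes was -0.09 with doxorubicin and -0.20 without it on TPM, against 0.02 and -0.03 on CPM. The gene tables do not say which transcripts carried the reads, and the source of these differences was not tested.

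Of 16 tested genes for partners of the DNA methylation machinery, 10 were not called, 5 were called higher in the deficient libraries and 1 lower, and the median log2 fold change was 0.05. Over all genes tested, 12.6% were called higher and 10.6% lower. Cdca7, which recruits the remodeller HELLS, had 23.2 and 19.2 CPM in the deficient libraries against 0.961 and 5.62 CPM in the wild-type ones (log2 fold change 3.07, edgeR adjusted p = 0.00114). Hells itself, a helicase needed for methylation of packed chromatin, had 27.7 and 22.3 CPM in the deficient libraries against 3.41 and 8.69 CPM (2.17, edgeR adjusted p = 0.00139). Pcna, the replication clamp that also tethers DNMT1, rose 2.33-fold (edgeR adjusted p = 1.18e-05). Suv39h1, a histone H3 lysine 9 methyltransferase, had a log2 fold change of 1.14, and Trim28, a co-repressor that protects imprints, one of 0.65. Ahcy, which clears the by-product of methylation reactions, was lower at -0.56. Uhrf2, the paralogue of Uhrf1, had 46.0 and 40.7 CPM in the deficient libraries and 44.6 and 45.8 CPM in the wild-type libraries (log2 fold change -0.06, not called), and Usp7, a deubiquitinase that binds DNMT1 and UHRF1, was at 0.03. Zfp57 was at -1.98 and not called (edgeR adjusted p = 0.27). Suv39h1, Trim28, Ahcy and Uhrf2 were picked for mention after their values were seen.

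On the demethylation side, 1 of 13 tested genes was called higher and 2 lower, with a median of 0.10 and again beside 12.6% and 10.6% of all genes. Idh2, the mitochondrial enzyme that makes the TET co-substrate 2-oxoglutarate, had 427 and 375 CPM in the deficient libraries against 175 and 156 CPM in the wild-type ones (log2 fold change 1.27, edgeR adjusted p = 6.69e-07). Cxxc4, a CXXC protein that binds TET2, fell to 4.10 and 3.89 CPM in the deficient libraries, against 10.7 and 14.1 CPM in wild type (-1.62, edgeR adjusted p = 0.0208). Gadd45b, a stress gene linked to DNA demethylation in neurons, fell to 43.5 and 62.2 CPM, against 133 and 122 CPM in wild type (-1.29, edgeR adjusted p = 5.92e-05). Tdg, the glycosylase that removes oxidised 5-methylcytosine, was chosen after its values were seen and had 62.3 and 52.3 CPM in the deficient libraries and 55.8 and 45.4 CPM in the wild-type ones (log2 fold change 0.18, not called).

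Among 10 tested accessory subunits of PRC2, 2 were called higher and 0 lower, with a median of -0.10, beside 12.6% and 10.6% of all genes. Phf19, a Polycomb-like protein that guides PRC2 to CpG islands, had 635 and 294 counts in the deficient libraries, against 26 and 3 in wild type (log2 fold change 5.46 ± 0.53 SE, edgeR adjusted p = 1.82e-06). Its paralogues Mtf2 and Phf1 were at -0.03 and -0.17, both not called. Rbbp7, a histone-binding subunit, was called at 0.35 (edgeR adjusted p = 0.0314), and it was picked together with Phf1 after the values were seen. Epop, Lcor and Aebp2 had log2 fold changes of -1.08, -0.60 and -0.56, none of them called, and Jarid2 was at 0.01.

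PRC1, the complex that binds the PRC2 mark and ubiquitinates histone H2A, had 0 of 22 tested subunits called higher and 2 lower, with a median of 0.08, beside 12.6% of all genes tested called higher and 10.6% lower. The share called lower is near that of all genes. Scmh1 fell to 26.6 and 39.2 CPM in the deficient libraries, against 91.1 and 96.8 CPM in wild type (log2 fold change -1.54, edgeR adjusted p = 2.27e-05). Pcgf3, a subunit of a variant PRC1, fell to 34.6 and 27.8 CPM, against 60.7 and 58.3 CPM in wild type (-0.94, edgeR adjusted p = 0.00373). Cbx2 had 105 and 44 counts in the deficient libraries against 36 and 0 in the wild-type ones and was not called (edgeR adjusted p = 0.0714). Cbx7 was at 1.28 and not called (edgeR adjusted p = 0.114), and Cbx6 and Bcor were at -0.06 and 0.07.

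Enzymes that work against Polycomb silencing gave 2 calls higher and 2 lower among 13 tested genes, with a median of -0.15, shares near those of all genes tested (12.6% higher and 10.6% lower). Asxl3, a partner of the H2A deubiquitinase BAP1, had 49 and 30 counts in the deficient libraries and 0 in both wild-type ones, at least 18.9-fold higher with doxorubicin and at least 11.6-fold higher without it (floor of 3 counts per library). Nsd2, a histone H3 lysine 36 methyltransferase, was 1.74-fold higher (edgeR adjusted p = 0.0138). Kmt2d, a histone H3 lysine 4 methyltransferase of enhancers, fell to 39.6 and 34.6 CPM in the deficient libraries, against 76.7 and 83.1 CPM in wild type (log2 fold change -1.11, edgeR adjusted p = 0.000439). Kmt2a, chosen after its value was seen, was at -0.59 (edgeR adjusted p = 0.0269). The lysine 27 demethylase Kdm6b was at -0.86 and not called (edgeR adjusted p = 0.104).

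**Figure D4:**
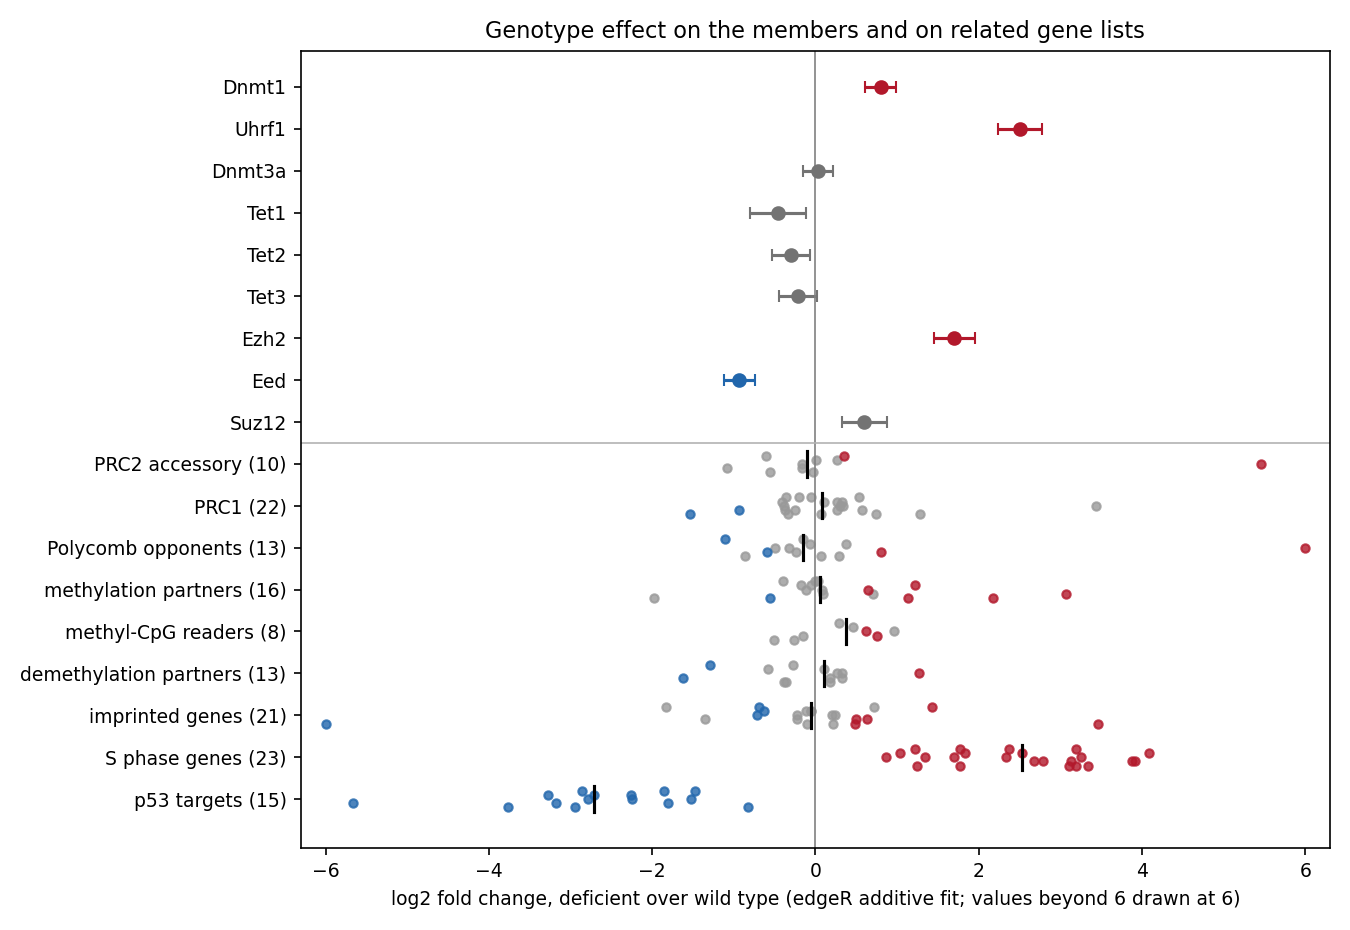
Log2 fold change of deficient over wild type from the additive edgeR model for the 9 tested genes (bars are SE) and for related gene lists, 1 point per gene, with the number tested in brackets and the median as a black line. Red and blue mark genes called higher and lower, grey marks genes not called, and points past 6 in either direction are drawn at 6.

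Genes of DNA synthesis and division were higher in the deficient libraries as well. All 23 of 23 listed S phase genes were called higher in the deficient libraries, where 12.6% of all genes tested were called higher. The list was chosen with earlier results of these data known. Its log2 fold changes ran from 0.86 (Mcm7) to 4.08 (Mki67), with a median of 2.53. Uhrf1 (2.51) was near the middle of that range, Ezh2 (1.70) in its lower part, and Dnmt1 (0.80) just below its lowest value. Top2a, which encodes the target of doxorubicin in dividing cells, had 191 and 137 CPM in the deficient libraries against 11.8 and 9.89 CPM in the wild-type ones (3.91, edgeR adjusted p = 4.54e-10). Suz12 (0.60), Dnmt3a, Eed and the TET genes were below the range of the list as well. The number of dividing cells was not measured, and any part of it in the differences of Uhrf1, Ezh2 and Dnmt1 was not tested.

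The genes whose pattern was most like that of a member were found from log2(CPM + 1), centred on the mean of the 4 libraries, by the smallest root mean square difference among 12048 genes with a mean of at least 5 CPM. For Uhrf1 the nearest were Rfx4 (0.0353), Kif20b (0.104) and Rrm2 (0.108), and 2 genes were within 0.1. For Ezh2 they were Rgl3 (0.0727), Fancm (0.09) and Nexn (0.1), again with 2 genes within 0.1. Patterns of smaller range had many neighbours: 129 genes were within 0.1 of Dnmt1, led by Brms1l, Nup62 and Ddt, and 100 of Suz12, led by Tent2, Jazf1 and Inhbb. Dnmt3a had 778 such neighbours, led by Tnpo3, Usp7 and Hsph1, and Tet3 had 564, led by Slc25a53, Rbm26 and Rock1. The likeness is over 4 libraries only and describes them.

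Most listed genes that these systems are known to silence were at or near 0, with exceptions among the Polycomb targets. Of 15 listed germline genes that DNA methylation silences in somatic cells, 7 were at 0 counts in every library and none reached the expression minimum. The highest was Slc25a31, a testis form of the mitochondrial ATP carrier, with 9 and 28 counts in the deficient libraries and 2 and 12 in the wild-type ones. Of 30 classical Polycomb targets, 11 were at 0 in every library and 3 reached the minimum. Lhx2, a neural homeodomain factor, was well expressed, at 101 and 102 CPM in the deficient libraries and 73.7 and 77.4 CPM in the wild-type ones. Cdkn2b, which encodes a cyclin-dependent kinase inhibitor, was at 56.4 and 68.7 CPM in the deficient libraries and 93.5 and 77.7 CPM in the wild-type ones. None of the 3 was called for genotype: Lhx2 had a log2 fold change of 0.43 (edgeR adjusted p = 0.0519), Cdkn2b one of -0.45 (0.0807) and Tbx15 one of -1.54 (0.533). Cdkn2a, the neighbour of Cdkn2b and a much studied PRC2 target in ageing cultures, had 22 and 8 counts in the deficient libraries and 6 and 2 in the wild-type ones. No DNA or histone methylation was measured here, so the levels above are those of RNA.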

How the data were processed

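Per the labels' protocols, RNA of 4 cultures was prepared with SMART-Seq v4, whose reads carry no strand. The authors deposited an estimated count and a TPM value per gene, per the file headers, and DRAGEN and GRCm38 come from the submitters' processing notes (version, annotation release and filters: not given in the sources used here). Estimated counts as deposited were rounded to whole numbers (35 of the 40 values of the 10 genes were already whole), scaled with TMM factors (0.98 to 1.02) and fitted with edgeR 4.0.16 in R 4.3.3. The floor of 3 counts is 0.131 to 0.174 CPM. Genes were named by rule: the 10 members, the label checks, up to 4 genes with the largest and 2 with the smallest genotype change in each list, and the 3 nearest patterns of 6 members. There were 11 pathway lists and 8 marker lists. The members and lists were chosen with earlier results of these data known. Of 55487 identifiers, 55227 had a symbol. Alternatives were DESeq2 1.42.0, limma 3.58.1 (voom), other scalings, pseudocounts and minimums, TPM, no X and Y genes, and each library left out.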

Additional observations from a re-analysis of the deposited data

Results flagged for a closer look

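Dnmt3b, the de novo DNA methyltransferase of low level in these cultures, moved in opposite directions with genotype under doxorubicin and without it. The log2 ratio of deficient to wild type (CPM + 1) was 0.52 with doxorubicin, from 11 against 2 counts, and -1.50 without treatment, from 5 against 53 counts. The difference between these ratios was 2.02, and it was picked out because deficient exceeded wild type with doxorubicin and fell short of it without treatment. The difference was not tested, since each condition has 1 library, and 1 library, wild type untreated, holds most of the counts.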

How the results depend on the processing

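No called value changed direction under the alternatives run. No paired analysis was possible because each combination of genotype and treatment has 1 library and the number in a title follows the treatment. With 1 library left out and the tested factor alone in the model, the counts for genotype ran from 500 to 2473 genes higher and 500 to 1734 lower, with 1 to 4 of the 10 genes higher and 0 to 2 lower, and for treatment 0 genes were called in either direction. These fits have fewer libraries and 1 term fewer. For treatment over all genes, DESeq2 called 6 higher, limma-voom 17 higher and 67 lower, DESeq2 size factors in edgeR 22 and 55, a minimum of 5 CPM 26 and 73, no minimum 10 lower, omission of X and Y genes 0 and 13, and the model without genotype 0 and 0. By size, a pseudocount of 5 CPM gave 763 higher and 643 lower for genotype untreated, 861 and 629 for genotype with doxorubicin, 15 and 27 for treatment in deficient, 83 and 143 in wild type, and 306 and 174 for the difference of responses. A pseudocount of 0.5 CPM gave 407 and 456 for treatment in deficient. A minimum of 5 CPM gave 1015 and 880 for genotype untreated, 824 lower with doxorubicin, 77 and 107 for treatment in deficient, 244 and 365 in wild type, and 600 and 387 for the difference. With no minimum, treatment in wild type had 1024 higher and the difference 1459 lower, and Dnmt3b added 1 gene of the 10 lower for genotype untreated, 1 lower for treatment in wild type and 1 higher for the difference. On TPM, 2 of the 10 were lower for genotype untreated, 1 lower with doxorubicin and 1 higher for the difference, and the median of all genes for genotype untreated was -0.20. The causes were not tested. For genotype, Dnmt1, Eed and Ezh2 lost a call in 5 cases and Tet1 and Suz12 gained one in 2, all in the fits that leave out both a library and the second term.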

Other observations

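Among 21 tested imprinted genes, whose silent copy is kept by DNA methylation, 5 were called higher in the deficient libraries, 4 lower and 12 not, with a median log2 fold change of -0.05. Over all genes tested, 12.6% were called higher and 10.6% lower, and the list itself was not tested. H19, an imprinted noncoding RNA, had 284 and 117 counts in the deficient libraries against 11 and 30 in the wild-type ones (log2 fold change 3.46, edgeR adjusted p = 0.00286), while its neighbour Igf2, chosen after its value was seen, was at -0.22 and not called. Nnat, a neuronal membrane proteolipid, had 284 and 230 CPM in the deficient libraries against 102 and 88.6 CPM in wild type (1.43, edgeR adjusted p = 6.71e-07). Peg3, Meg3 and Snrpn were called at 0.63, 0.50 and 0.49, and Igf2r, Kcnq1ot1 and Impact at -0.71, -0.69 and -0.63, all 6 named after their values were seen. Magel2 was called lower, but its 134 counts were all in wild type with doxorubicin and it was at 0 in the other 3 libraries. Slc22a18 was at -1.83 and not called, and Gnas and Ndn were both at -0.05. Gene counts do not tell the parental copies apart.

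Readers of methylated CpG sites and related proteins gave 2 calls higher and 0 lower among 8 tested genes, with a median of 0.38, beside 12.6% and 10.6% of all genes. Mbd2, a subunit of the NuRD repressor, had 63.8 and 57.3 CPM in the deficient libraries against 35.2 and 36.0 CPM in wild type (log2 fold change 0.76, edgeR adjusted p = 0.0115). Mbd3 encodes a related protein, the alternative subunit in NuRD. It had 182 and 169 CPM in the deficient libraries against 118 and 111 CPM (0.62, edgeR adjusted p = 0.00268). Zbtb4 was at 0.96 and not called (edgeR adjusted p = 0.0642), and Zbtb33 was at -0.51.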
